A study of Mus musculus with 24 samples.

Results

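The genes described here encode the fibrillar and interstitial matrix of the mouse lung. They are collagens other than type IV, elastic fibre proteins, crosslinking enzymes, matrix glycoproteins and proteoglycans, laminins with their linkers, and the proteases and inhibitors that remodel them. A list of 42 gene symbols defined the group, and a gene was represented by the array probe set that named it alone and had the highest mean log2 signal. Of the 42 symbols, 40 had such a probe set, among 12393 genes named by the array, and these 40 genes had 77 probe sets in all. Fbn1 and Loxl2 were not analysed here, because no probe set carried those symbols alone. The choice of probe set used the signal averaged over all arrays and no difference between groups. Of the 40 genes, 38 passed the limit on low signal used for testing (mean log2 signal above 7.11, the 40th percentile of all probe sets), and Vcan and Nid2 lay below it.

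The interstitial matrix gives lung tissue its strength and recoil. Fibrillar collagens, mainly types I and III with the type V chains that regulate fibre assembly, bear tension, while elastin and the fibulins form the elastic fibres that let the alveoli recoil. Lysyl oxidase and its relatives crosslink both. Laminins, nidogens and perlecan build the basement membrane and tie it to the interstitium. Matrix metalloproteinases cut these proteins and the TIMP proteins inhibit the metalloproteinases. In chronic airway allergy, collagen and glycoprotein deposition below the epithelium is part of airway remodelling, and fibroblasts and smooth muscle cells are its main sources.

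RNA of whole frozen lung was measured on 24 Affymetrix arrays in 6 groups of 4. Mice breathed filtered air, diesel exhaust (DE) at 500 ug/m3 or DE at 2000 ug/m3 for 4 hours per day on 5 days, and on 3 days received either 100 ug ovalbumin (OVA), a protein allergen, or saline. The groups are called air saline, DE500 saline, DE2000 saline, air OVA, DE500 OVA and DE2000 OVA. The 3 groups of an arm share its saline or OVA treatment. Strain, age, sex and route are not given in the labels used here. No label says that the 4 arrays of a group came from separate animals, so the p-values measure the spread between these arrays. In whole lung RNA, fewer cells of a type and less RNA per cell cannot be told apart.

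Promoters are shown for 3 of the 10 genes called lower in OVA than in saline lungs, as examples chosen after their values were seen: Mmp14 (a membrane metalloproteinase), Timp2 (a metalloproteinase inhibitor) and Bgn (biglycan, a small proteoglycan of collagen fibres). RefSeq promoter sequences on GRCm38.p6 were matched by symbol for 27 of the 40 genes, with 33 promoters. The windows are the 250 bases before the annotated start, at chr14:54431348-54431597 on the plus strand for Mmp14, chr11:118355412-118355661 on the minus strand for Timp2 and chrX:73483351-73483600 on the plus strand for Bgn. Capitals mark matches, on either strand, to the GC box GGGCGG and the CCAAT box CCAAT.
Mmp14: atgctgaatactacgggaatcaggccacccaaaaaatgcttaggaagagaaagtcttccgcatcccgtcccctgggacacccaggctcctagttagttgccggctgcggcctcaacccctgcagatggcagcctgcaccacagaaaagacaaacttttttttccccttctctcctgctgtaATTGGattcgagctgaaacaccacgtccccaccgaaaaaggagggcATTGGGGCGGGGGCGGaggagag
Timp2: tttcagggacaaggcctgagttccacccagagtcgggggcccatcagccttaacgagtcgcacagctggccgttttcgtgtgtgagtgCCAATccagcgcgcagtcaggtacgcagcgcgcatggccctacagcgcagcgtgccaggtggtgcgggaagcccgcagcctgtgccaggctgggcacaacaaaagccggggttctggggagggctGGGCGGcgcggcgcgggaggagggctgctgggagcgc
Bgn: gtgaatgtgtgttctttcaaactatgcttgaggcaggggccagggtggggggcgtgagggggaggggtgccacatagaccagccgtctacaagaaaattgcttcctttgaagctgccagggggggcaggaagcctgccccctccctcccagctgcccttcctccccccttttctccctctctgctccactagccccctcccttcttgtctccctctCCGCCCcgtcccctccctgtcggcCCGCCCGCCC
In the Mmp14 window the GC boxes began at positions -19 and -13 from the start and the CCAAT boxes at -69 and -23, and the last CCAAT match and the first GC box share 1 base. The Timp2 window had a GC box at -37 and a CCAAT box at -162. The Bgn window had GC boxes at -34, -10 and -6, of which the last pair overlap, and no CCAAT match. Of the 33 member promoters, 21 (63.6%) held a GC box, against 32.7% of all 32851 promoters. A CCAAT box was in 27.3% of the member promoters and in 33.8% of all, a TATAAA match in 12.1% and 12.4%, and a TGANTCA match (AP-1) in 3.03% and 6.75%. These matches describe the letters of the windows and are no evidence of binding.

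Before the results, 1 property of the arrays has to be stated. Affymetrix arrays carry control probe sets at the 3' and 5' ends of Gapdh and actin, and the log2 of the 3' over the 5' signal, averaged over both genes, is a measure of RNA evenness that is higher when the 5' end is lost. This 3'/5' ratio ran from 0.10 to 4.38 (mean 1.84 ± 1.28 SD, n = 12) in the saline arrays and from -0.13 to 2.02 (mean 0.21 ± 0.58 SD, n = 12) in the OVA arrays. In DE500 saline, replicates 1 and 4 were at 4.38 and 3.77 and replicates 2 and 3 at 0.33 and 0.10. In DE2000 OVA, replicate 4 was at 2.02 and the others were at or below 0.09. The log2 signal of the control for B1 repeat RNA also differed, at 12.08 to 13.83 in saline and 10.85 to 12.43 in OVA. For several results that rest on DE500 saline replicates 1 and 4 or DE2000 OVA replicate 4, values or calls without those 3 arrays are therefore also given. Lung markers were present on every array (Sftpc, surfactant protein C, had a signal of 21129 to 41214), except Marco, a macrophage receptor, whose signal of 13.5 to 79.2 lay below the limit.

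Inhaled diesel exhaust at the higher dose left the matrix genes of saline lungs without a called change. None of the 38 genes reached an adjusted p under 0.05 (limma on log2 signal, Benjamini-Hochberg over 13575 probe sets), against 0.147% of all probe sets, and 5 had an unadjusted p under 0.05, against 5.94%. Of the 38 log2 differences from air, 28 were below 0, with a median of -0.12, while 48.5% of all probe sets were above 0 and their median was -0.01. All 6 glycoproteins and proteoglycans were below 0. In the same arrays the summed signal of 7 neutrophil markers was 4230 to 6370 in air and 6990 to 12500 in DE2000, without overlap, and all 7 were above 0 with none called. Among them S100a8 and S100a9, the calprotectin subunits, were at 1.002 and 1.13. Their part in the matrix differences was not tested. In 3 genes all 4 DE2000 arrays lay below all 4 air arrays, which was so for 1.61% of all probe sets: Col5a2, Lama3 and Lamc1.

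Col5a2, a type V collagen chain, had log2 signals of 9.61, 9.71, 9.53 and 9.44 in air saline and 9.05, 9.29, 9.20 and 8.97 in DE2000 saline. The difference was -0.44 ± 0.15 (SE; adjusted p = 0.393, limma). Lamc1, the gamma chain found in most laminins, was at 10.15, 10.54, 10.27 and 10.44 in air saline against 9.78, 9.46, 10.002 and 10.01. On the probe sets used, both genes were thus lower on every DE2000 array, and neither passed the test. Tested probe sets of Lamc1 had opposite signs in this comparison, as in 13 of the 21 genes with more than 1. For Lamc1 the difference was -0.54 ± 0.23 (adjusted p = 0.741, limma). Lama3, a laminin chain of epithelial basement membranes, was at 9.16, 9.54, 8.92 and 9.32 in air saline and at 8.67, 8.51, 8.79 and 8.91 in DE2000 saline, so that its lowest air array was just above its highest DE2000 array. Its difference of -0.51 ± 0.27 had an adjusted p of 0.918 (limma). The spread in this test is that of all 6 groups, and Lama3 split widely in DE500 saline. The next genes by p were Col5a3, another type V chain, at -0.39 ± 0.16, and Col6a3, a chain of the microfibrillar type VI collagen, at -0.39 ± 0.17, with overlapping arrays.

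**Figure D1:**
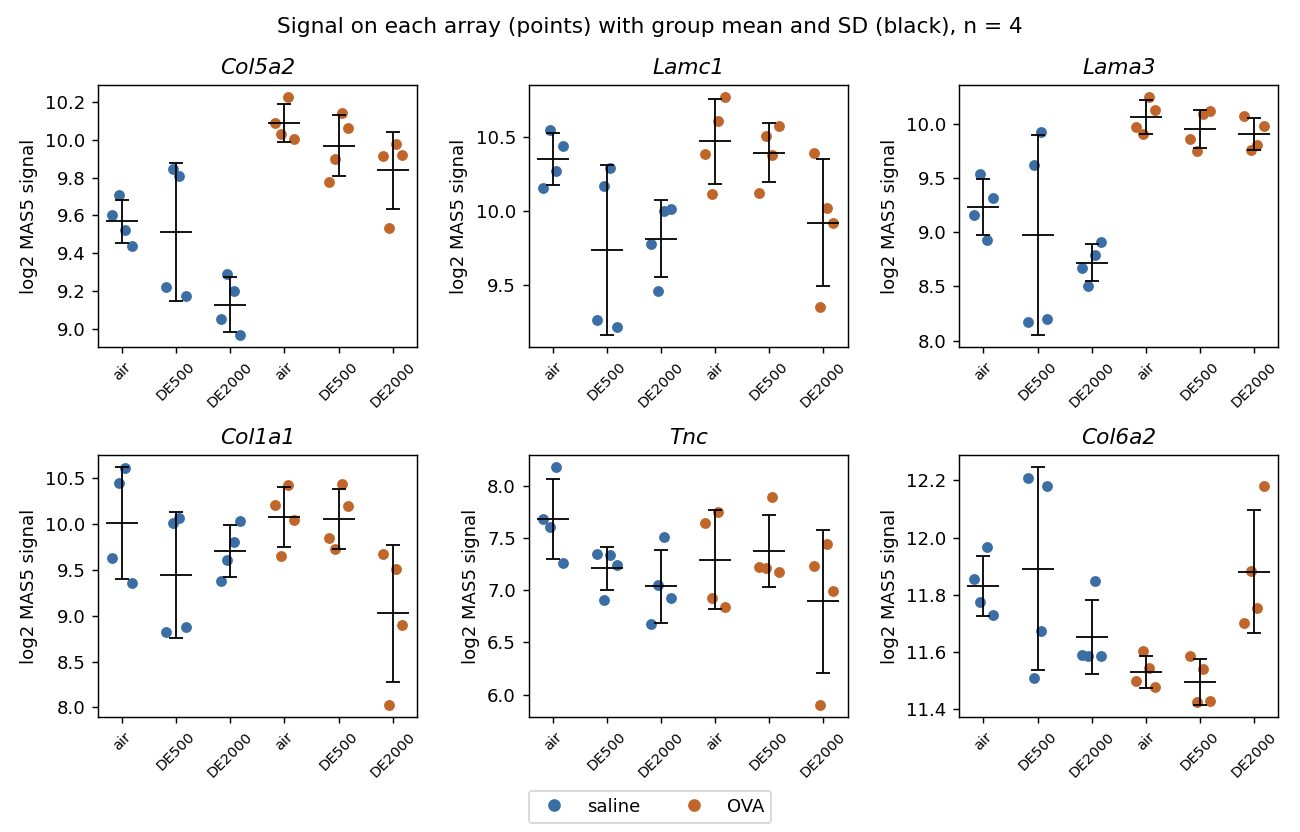
Log2 signal of 6 matrix genes on each of the 24 arrays, by exposure (air, DE500, DE2000) and arm (saline blue, OVA orange); black marks are group means with SD, n = 4. Col5a2 and Lamc1 lie lower in DE2000 than in air saline with no overlap, and in DE500 saline the points of Col5a2, Lamc1, Lama3, Col1a1 and Col6a2 fall into 2 pairs.

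Under OVA, the higher dose again gave no called matrix gene, against 0.0221% of all probe sets. Of the 38 differences 26 were below 0 and the median was -0.14, with 43.8% of all probe sets above 0 and a median of -0.04. The median array level itself was 0.11 lower in DE2000 OVA than in air OVA, and with arrays scaled to 1 median the matrix median was -0.03 with 16 of 38 above 0. The farthest from 0 was Col1a1, the main chain of type I collagen. Its log2 signals were 10.20, 9.65, 10.43 and 10.05 in air OVA and 9.68, 8.02, 9.51 and 8.90 in DE2000 OVA. The groups overlapped by 1 array, with replicate 2 of DE2000 OVA far below the rest. The difference was -1.05 ± 0.34 (adjusted p = 0.517, limma), and -0.72 without that replicate. The partner chain of type I collagen, Col1a2, did not follow it, at 12.71, 12.61, 12.69 and 12.61 in air OVA and 12.71, 12.59, 12.92 and 12.65 in DE2000 OVA (0.06 ± 0.13).

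Replicate 2 of DE2000 OVA was the lowest array of its group for 22 of the 38 genes. Tnc, tenascin C, a glycoprotein of tissue repair, was at 5.90 there and at 6.99 to 7.45 on the other 3 arrays. Its difference from air OVA was -0.40 ± 0.30, and -0.07 without that replicate. Col5a2 was again below air on every array, at 9.92, 9.54, 9.98 and 9.92 against 10.09, 10.03, 10.23 and 10.005, by 0.25 ± 0.15 (adjusted p = 0.666, limma). Tested probe sets of Col5a2 had opposite signs here, as in 6 of the 21 genes with more than 1. Col6a2, another type VI chain, was above air on every array, at 11.70, 11.88, 11.76 and 12.18 against 11.50, 11.61, 11.54 and 11.48. These 2 genes were the only members whose arrays did not overlap, against 4.35% of all probe sets. The Col6a2 difference was 0.35 ± 0.14 (adjusted p = 0.593, limma), and 0.25 ± 0.10 with the 3 arrays of high 3'/5' ratio left out. Lamc1 was at -0.55 ± 0.23 and Fbln2, fibulin 2 of elastic fibres, at -0.35 ± 0.18, with overlapping arrays.

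Averaged over both arms, DE2000 against air gave 29 of 38 differences below 0, with a median of -0.11, against 46.6% of all probe sets above 0 and a median of -0.02. None was called (limma, background 0.0884%), and 7 had an unadjusted p under 0.05, all of them below 0, against 7.52% of all probe sets in either direction. All 6 fibrillar collagens and all 4 elastic fibre genes lay below 0, as did 7 of 8 laminin and linker genes, while 4 of the 5 proteases and inhibitors lay above. With arrays scaled to 1 median, 6 of the 8 laminin and linker genes were below 0, and with quantile normalization 3 of the 5 proteases and inhibitors were above. All fibrillar collagens and elastic fibre genes lay below 0 under both. The smallest p-values were those of Lamc1 at -0.54 ± 0.16 (adjusted p = 0.394, limma) and Col5a2 at -0.35 ± 0.10 (adjusted p = 0.394, limma). Col1a1 followed at -0.68 ± 0.24 and Tnc at -0.52 ± 0.21. Other matrix genes often named in lung injury were nearer 0, with Col3a1 (type III collagen) at -0.10 ± 0.17 and Fn1 (fibronectin) at -0.21 ± 0.14. Eln (elastin) stood at -0.05 ± 0.13 and Timp1, an inducible metalloproteinase inhibitor, at 0.10 ± 0.11. The standard errors of the 38 differences ran from 0.06 to 0.35, so small shifts were not detectable with 4 arrays per group. A second probe set of Col1a1 gave 0.14 for this comparison. Tested probe sets had opposite signs in 9 of the 21 genes with more than 1, among them Col1a1, Lama4, Mmp2, Timp2 and Timp3. Mmp2, Timp2 and Timp3 were counted above 0 here, so the counts by role rest on the probe sets used.

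The lower dose gave smaller shifts under OVA. None of the 38 genes was called there, none had an unadjusted p under 0.05, and no probe set of the array was called (limma, background 0.0%, with 0.921% of probe sets at an unadjusted p under 0.05). The differences ran from -0.15 to 0.21 with a median of -0.02. Lama5, a laminin chain of epithelium and endothelium, had the smallest p at 0.17 ± 0.12. Hspg2, the heparan sulphate proteoglycan perlecan, was at 0.15 ± 0.14, Lama2, a laminin chain of muscle and mesenchyme, at 0.21 ± 0.19, and Fbln5, fibulin 5 of elastic fibres, at -0.11 ± 0.11.

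In saline lungs the lower dose also gave no called member, against 0.00737% of all probe sets. The differences ran from -0.62 to 0.49, 27 of 38 were below 0 and no gene had arrays that did not overlap, against 3.45% of all probe sets. Lamc1 shows how DE500 saline was divided, at 9.27, 10.17, 10.29 and 9.22 on replicates 1 to 4. Replicates 1 and 4, those of high 3'/5' ratio, were low, and replicates 2 and 3 lay within the air range of 10.15 to 10.54. The difference from air was -0.62 ± 0.23 and became -0.12 without the 3 arrays. Col3a1 went the other way, at 12.93, 11.76, 11.89 and 12.27 against 11.51, 12.12, 11.75 and 11.51 in air, a difference of 0.49 ± 0.24 that became 0.10. Lama4, the endothelial laminin chain, did not split by replicate. It was at 9.26, 9.63, 9.21 and 9.36 in DE500 saline and 9.60, 9.87, 10.02 and 9.59 in air, with 1 overlapping array, a difference of -0.40 ± 0.12 (adjusted p = 0.271, limma) and of -0.35 ± 0.15 without the 3 arrays. Without them 1 gene was called: Thbs1, thrombospondin 1, at 1.42 ± 0.30 (adjusted p = 0.00854, limma). The share of all probe sets called in that fit is not given here. DE500 saline was then replicates 2 and 3 alone, with 3'/5' ratios of 0.33 and 0.10, against 0.98 to 2.90 in air saline. Thbs1 had a negative slope on this ratio, as described below, and the part of the ratio in its difference was not tested.

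**Figure D2:**
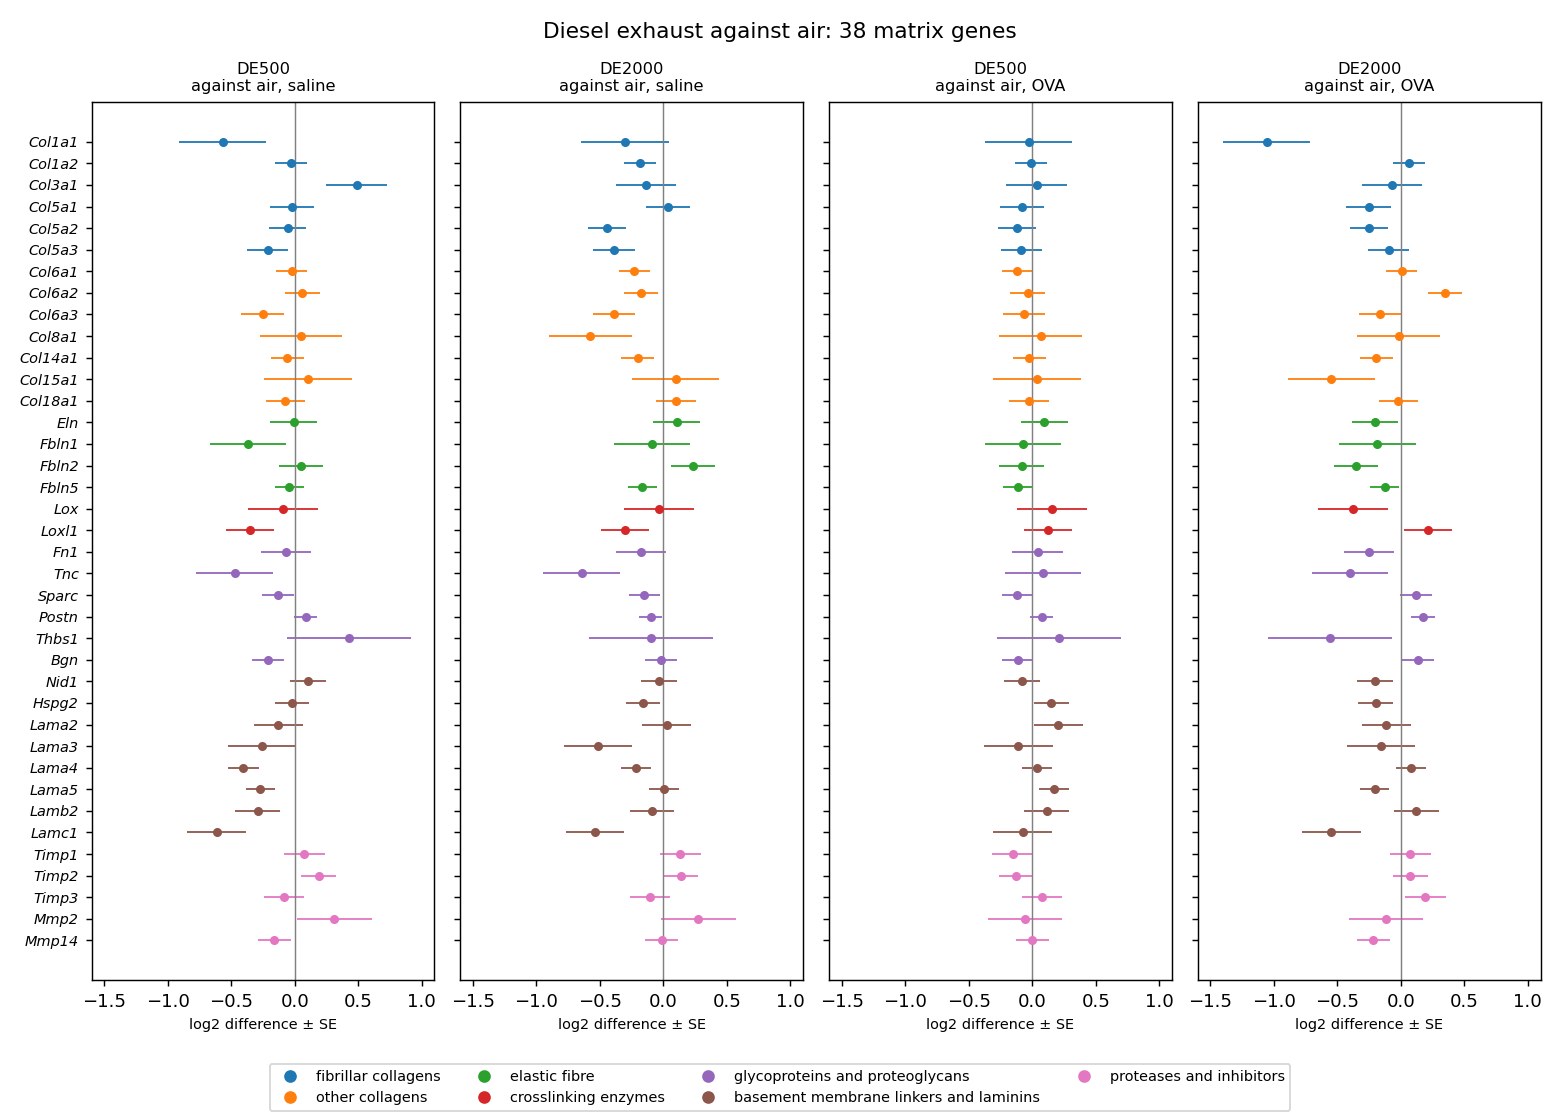
Log2 difference from air (horizontal axis, with SE) of the 38 tested matrix genes, coloured by role, for both doses in both arms. Most points of the DE2000 panels lie below 0 and those of DE500 under OVA lie close to 0; no point passed an adjusted p of 0.05.

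Whether the diesel response differed between OVA and saline lungs was tested as an interaction. No matrix gene and no probe set of the array was called for either dose (limma, background 0.0%). At DE2000, 3 of the 38 genes had an unadjusted p under 0.05, against 6.11% of all probe sets. They were Col6a2 at 0.53 ± 0.19 (adjusted p = 0.637, limma), Fbln2 at -0.59 ± 0.25 and Postn, periostin, at 0.27 ± 0.13. Col6a2 was 0.18 lower than air in saline and 0.35 higher in OVA, and Fbln2 was 0.23 higher in saline and 0.35 lower in OVA. At DE500, Lama5 at 0.44 ± 0.16 and Lama4 at 0.44 ± 0.17 had an unadjusted p under 0.05, against 3.09% of all probe sets.

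OVA against saline gave called differences in both directions. In the mean over the 3 exposures, 16 of the 38 matrix genes (42.1%) were called, 6 higher and 10 lower in OVA, against 46.3% of all tested probe sets (22.7% higher, 23.6% lower). The share of matrix genes was therefore near that of the whole array. The median over the 38 was -0.06, against -0.01 over all probe sets. Within single exposures the counts were 6 in air (2 higher, 4 lower, background 14.8%, 7.62% higher and 7.14% lower), 5 in DE500 (3 higher, 2 lower, background 12.5%, 5.83% and 6.64%) and 7 in DE2000 (3 higher, 4 lower, background 18.1%, 7.68% and 10.4%). Quantile normalization gave 4 higher and 4 lower in air and 3 higher and 5 lower in DE500, and scaling to 1 median gave 3 higher and 2 lower in DE2000. The median array level was 0.12 higher in air OVA than in air saline. These counts moved with single arrays. In air the count was 2 without saline replicate 1, 1 without saline replicate 3, and 1, 3 and 2 without OVA replicates 1, 2 and 4. In DE500 it was 0 without saline replicate 1 or 4, 11 and 12 without saline replicates 2 and 3, and 3, 2 and 1 without OVA replicates 2, 3 and 4. In DE2000 it was 4 without saline replicate 1, saline replicate 4 or OVA replicate 2. For the fits with other scalings or an array left out, the share of all probe sets called is not given here. Changes in these counts are thus not read as particular to matrix genes. On all arrays, Col5a2, Lama3 and Mmp14 were called in all 3 exposures, and 12 genes in at least 1. The share of all probe sets called in this way is not given here. In air, leaving out 1 array lost the Lama3 call in 7 of 8 fits, that of Col5a2 in 5 and that of Mmp14 in 0. All 16 genes called in the mean had the same sign in the 3 exposures, as did 20 of the 38 genes in all. The mean is made of these same 3 differences, so that agreement is no separate support. The share of all probe sets with 1 sign is not given here. The groups compared also differ in 3'/5' ratio, which is taken up below for each gene.

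On the probe sets used, all 5 proteases and inhibitors were below 0 in OVA and 3 were called: Mmp14, Mmp2 and Timp2. Some other probe sets of Mmp14, Timp2 and Timp3 lay above 0, as stated further on. Mmp14, a membrane metalloproteinase that cuts collagen and activates pro-MMP2, fell by 0.65 ± 0.08 on the log2 scale (1.57-fold; adjusted p = 1.23e-06, limma). Its log2 signals were 9.96, 10.20, 10.39 and 9.98 in air saline, 10.10, 9.79, 10.04 and 9.94 in DE500 saline and 9.97, 10.20, 10.26 and 10.05 in DE2000 saline. In OVA they were 9.75, 9.37, 9.43 and 9.45 with air, 9.62, 9.40, 9.48 and 9.49 with DE500 and 9.53, 9.24, 8.97 and 9.39 with DE2000. All 12 OVA arrays lay below all 12 saline arrays. The fall was 0.63 ± 0.13 in air, 0.47 ± 0.13 in DE500 and 0.84 ± 0.13 in DE2000. The Mmp14 call in the mean did not depend on any single array, with adjusted p between 9.98e-07 and 4.53e-06 when each was left out (limma). In DE500 alone the Mmp14 call was lost in 5 of 8 fits that left out 1 array, and without the 3 arrays.

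Timp2 was at 12.82, 12.78, 13.14 and 12.87 in air saline, 13.27, 12.87, 13.03 and 13.19 in DE500 saline and 12.91, 13.09, 13.10 and 13.06 in DE2000 saline. The OVA values were 12.53, 12.68, 12.78 and 12.65 with air, 12.45, 12.58, 12.72 and 12.39 with DE500 and 12.66, 12.92, 13.08 and 12.29 with DE2000. The groups did not overlap in DE500, and the mean difference was -0.37 ± 0.08 (adjusted p = 0.000692, limma). In DE500 alone the Timp2 difference was -0.56, a call that was lost without saline replicate 1 or 4 and without the 3 arrays. Other probe sets of Timp2 gave other directions, as stated further on. Mmp2, gelatinase A, differed by -0.41 ± 0.17 (adjusted p = 0.0498, limma), ranged from 10.18 to 11.30 in saline and 9.77 to 11.27 in OVA, and lost its call in 17 of 24 fits that each left out 1 array. On the probe sets used, the remaining inhibitors were not called, with Timp1 at -0.04 ± 0.09 and Timp3 at -0.17 ± 0.09.

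**Figure D3:**
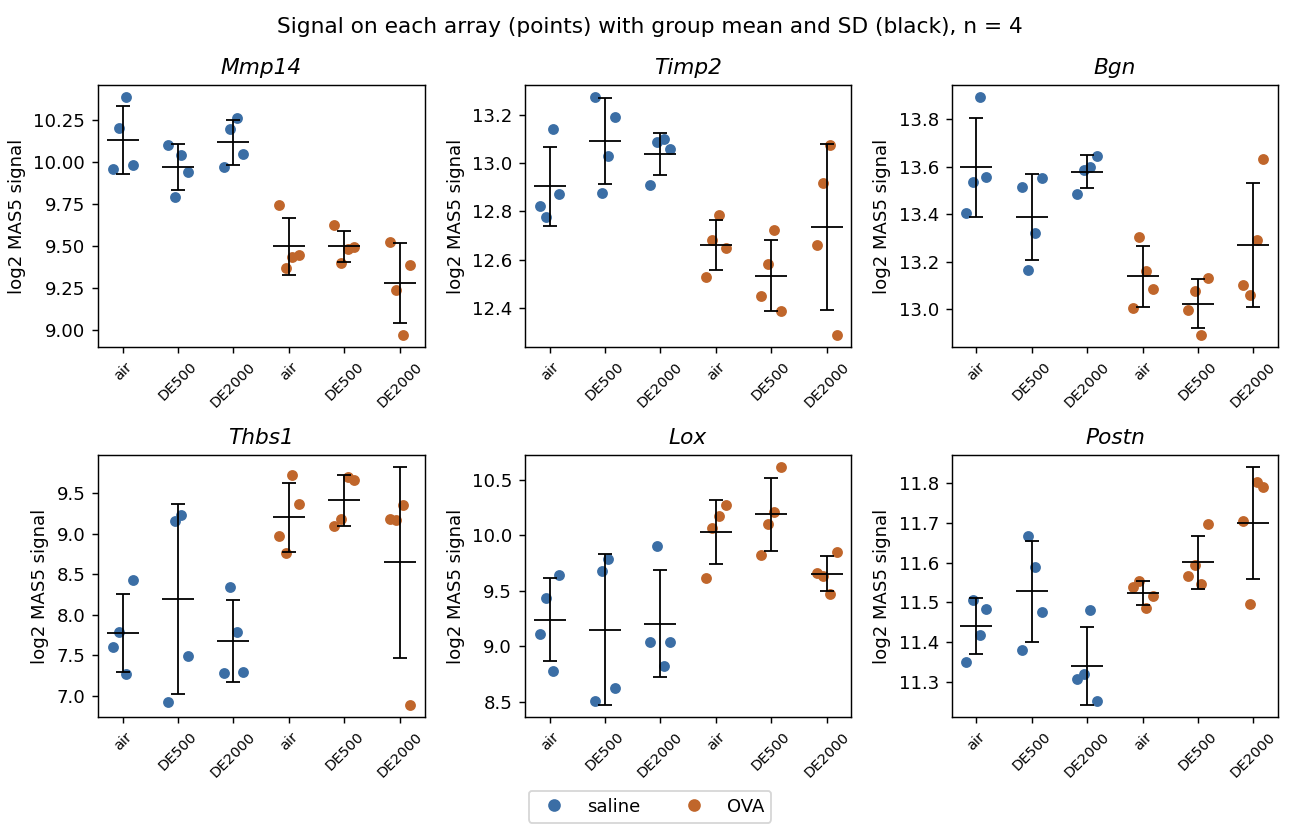
Log2 signal of 6 matrix genes on each of the 24 arrays, by exposure and arm (saline blue, OVA orange), with group means and SD in black, n = 4. The OVA points of Mmp14 lie below all saline points; Thbs1 and Lox are higher in most OVA arrays, and the DE500 saline points of Thbs1 and Lox fall into 2 pairs.

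The collagens were called in both directions. Of the 6 fibrillar chains, Col5a2 rose by 0.56 ± 0.09 (1.48-fold; adjusted p = 2.49e-05, limma) and Col5a3 fell by 0.39 ± 0.09 (adjusted p = 0.00179, limma). In saline Col5a2 was at 9.44 to 9.71 with air, 9.17 to 9.85 with DE500 and 8.97 to 9.29 with DE2000. In OVA it was at 10.005 to 10.23, 9.78 to 10.14 and 9.54 to 9.98, so the groups overlapped only at DE500. There the Col5a2 call was lost in 6 of 8 fits that left out 1 array, and without the 3 arrays. Col5a3 ran from 7.34 to 8.10 in saline and from 6.99 to 7.51 in OVA, with separate groups in air. The main fibre chains were not called. Col1a1 averaged 0.00 ± 0.20 over values of opposite sign, 0.07 in air, 0.61 in DE500 and -0.68 in DE2000 (each ± 0.34). Col3a1 was at 0.07 in air, -0.39 in DE500 and 0.14 in DE2000 (each ± 0.24), and Col1a2 at -0.10, -0.07 and 0.15 (each ± 0.13).

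Of the 7 other collagens, 6 were below 0 in OVA (7 with arrays scaled to 1 median) and 2 were called. Col15a1, a collagen next to basement membranes, was at 6.74, 7.87, 8.12 and 7.90 in air saline, 8.12, 7.52, 7.70 and 7.69 in DE500 saline and 8.10, 7.56, 7.70 and 7.64 in DE2000 saline. In OVA it was at 7.41, 6.87, 7.49 and 7.33 with air, 6.70, 7.05, 7.70 and 7.82 with DE500 and 6.94, 5.50, 7.08 and 7.41 with DE2000. Only the DE2000 groups did not overlap, and the difference there was -1.02 ± 0.34 (adjusted p = 0.0422, limma) and -0.61 in the fit without DE2000 OVA replicate 2. In the mean it was -0.61 ± 0.20 (adjusted p = 0.0149, limma). Col6a1, a type VI chain, differed by -0.23 ± 0.07 (adjusted p = 0.0112, limma).

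Both crosslinking enzymes were above 0 in OVA. Lox, lysyl oxidase, rose by 0.76 ± 0.16 (1.69-fold; adjusted p = 0.000546, limma), while Loxl1 at 0.21 ± 0.11 was not called. The Lox signals were 9.11, 9.43, 8.78 and 9.64 in air saline, 8.50, 9.68, 9.79 and 8.62 in DE500 saline and 9.04, 9.91, 8.82 and 9.04 in DE2000 saline. They were 9.61, 10.07, 10.17 and 10.27 in air OVA, 9.82, 10.10, 10.21 and 10.62 in DE500 OVA and 9.66, 9.63, 9.47 and 9.85 in DE2000 OVA. The DE500 groups did not overlap, and replicates 1 and 4 of DE500 saline were again the low pair. Without the 3 arrays the mean difference of Lox was 0.54 ± 0.14 and that in DE500 0.45 ± 0.26, which was not called. Of the elastic fibre genes only Fbln1, fibulin 1, was called, higher by 0.62 ± 0.17 (adjusted p = 0.00545, limma). It ran from 7.82 to 9.80 in saline and from 8.98 to 9.81 in OVA, and DE500 saline replicates 1 and 4 were its lowest arrays. Without the 3 arrays the Fbln1 mean was 0.40 ± 0.11 (adjusted p = 0.00538, limma) and the DE500 difference 0.04 ± 0.21. Eln was at 0.26 ± 0.11 and Fbln2 at -0.24 ± 0.10, both just short of the limit (adjusted p = 0.0528 and 0.0605, limma), and Fbln5 was at -0.02 ± 0.07.

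Of the 6 glycoproteins and proteoglycans, 2 rose and 2 fell. Thbs1, a glycoprotein that binds cells and can activate latent TGF-beta, rose by 1.20 ± 0.28 (2.30-fold; adjusted p = 0.00153, limma). It was at 7.61, 7.79, 7.28 and 8.42 in air saline, 6.93, 9.16, 9.23 and 7.49 in DE500 saline and 7.28, 8.34, 7.79 and 7.29 in DE2000 saline. The OVA values were 8.97, 8.76, 9.72 and 9.36 with air, 9.10, 9.19, 9.70 and 9.66 with DE500 and 9.18, 9.17, 9.35 and 6.89 with DE2000. High and low values crossed the arms: DE500 saline replicates 2 and 3 were at OVA levels and DE2000 OVA replicate 4 was the lowest of all 24 arrays. With the 3 arrays left out the difference was 1.07 ± 0.16. Postn, a glycoprotein of collagen fibres induced in allergic airways, rose by 0.17 ± 0.05 (adjusted p = 0.0109, limma). Its signals were 11.25 to 11.67 in saline and 11.49 to 11.80 in OVA, with separate groups in DE2000 alone, where the difference was 0.36 ± 0.09.

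Bgn fell by 0.38 ± 0.07 (adjusted p = 0.000257, limma). Its signals were 13.40, 13.54, 13.90 and 13.56 in air saline, 13.51, 13.16, 13.32 and 13.55 in DE500 saline and 13.48, 13.59, 13.60 and 13.65 in DE2000 saline. In OVA they were 13.00, 13.31, 13.16 and 13.09, then 13.00, 13.08, 12.89 and 13.13, then 13.10, 13.06, 13.29 and 13.63 for air, DE500 and DE2000. Only the DE2000 groups overlapped, through replicate 4 of DE2000 OVA. Sparc, a collagen-binding glycoprotein, fell by 0.20 ± 0.07 (adjusted p = 0.027, limma) and lost its call in 4 of 24 fits that left out 1 array. Fn1 at 0.06 ± 0.11 and Tnc at -0.12 ± 0.17 were not called.

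Laminins and their linkers gave 1 rise and 2 falls among 8 genes. Lama3 rose by 0.996 ± 0.16 (1.99-fold; adjusted p = 3.52e-05, limma). Its OVA signals were 9.96, 9.91, 10.25 and 10.13 with air, 9.86, 9.75, 10.08 and 10.11 with DE500 and 10.07, 9.76, 9.81 and 9.98 with DE2000. All 12 lay above the saline arrays of air (8.92 to 9.54) and DE2000 (8.51 to 8.91), while DE500 saline was at 8.17, 9.61, 9.92 and 8.20. Without the 3 arrays the Lama3 mean was 0.72 ± 0.09 (adjusted p = 1.58e-06, limma) and the DE500 difference 0.18 ± 0.17, not called. Lamb2, the beta chain of vascular and muscle laminins, differed by -0.31 ± 0.10 (adjusted p = 0.0158, limma) and Hspg2 by -0.26 ± 0.08 (adjusted p = 0.011, limma). Lamc1 at 0.29 ± 0.13, Nid1 (nidogen 1) at -0.11 ± 0.08, Lama2 at 0.04 ± 0.11, Lama4 at -0.06 ± 0.07 and Lama5 at -0.07 ± 0.07 were not called in the mean.

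The signals of many matrix genes varied with the 3'/5' ratio within groups. In a fit of the group means plus the ratio, 13 of the 38 genes (34.2%) had a called slope, 6 positive and 7 negative, against 37.9% of all probe sets (15.6% positive, 22.3% negative). With arrays scaled to 1 median, 13 were positive and 3 negative, and with quantile normalization 3 and 8. The steepest was Thbs1 at -0.61 ± 0.08 per unit of ratio (adjusted p = 4.65e-06, limma), followed by Fbln1 at -0.36 ± 0.05 and Lama3 at -0.32 ± 0.05. Positive slopes were led by Col3a1 at 0.22 ± 0.06 and Col6a2 at 0.15 ± 0.03. Mmp14 had a slope of 0.04 ± 0.04. Without DE500 saline replicate 1 there were 8 called slopes. The share of all probe sets called in that fit and in those with other scalings is not given here. The balance of signs is thus not read as particular to matrix genes. No slope was called once the 3 arrays of DE500 saline and DE2000 OVA were left out (4.12% of all probe sets), and 4 of the 13 then had an unadjusted p under 0.05. Their standard errors were 2.23 to 2.98 times as large, 12 of the 13 kept their sign and 8 were closer to 0. Thbs1 was then at -0.44 ± 0.21, Lama3 at -0.29 ± 0.11, Fbln1 at -0.14 ± 0.15, Col6a2 at 0.05 ± 0.08 and Col3a1 at -0.07 ± 0.14.

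**Figure D4:**
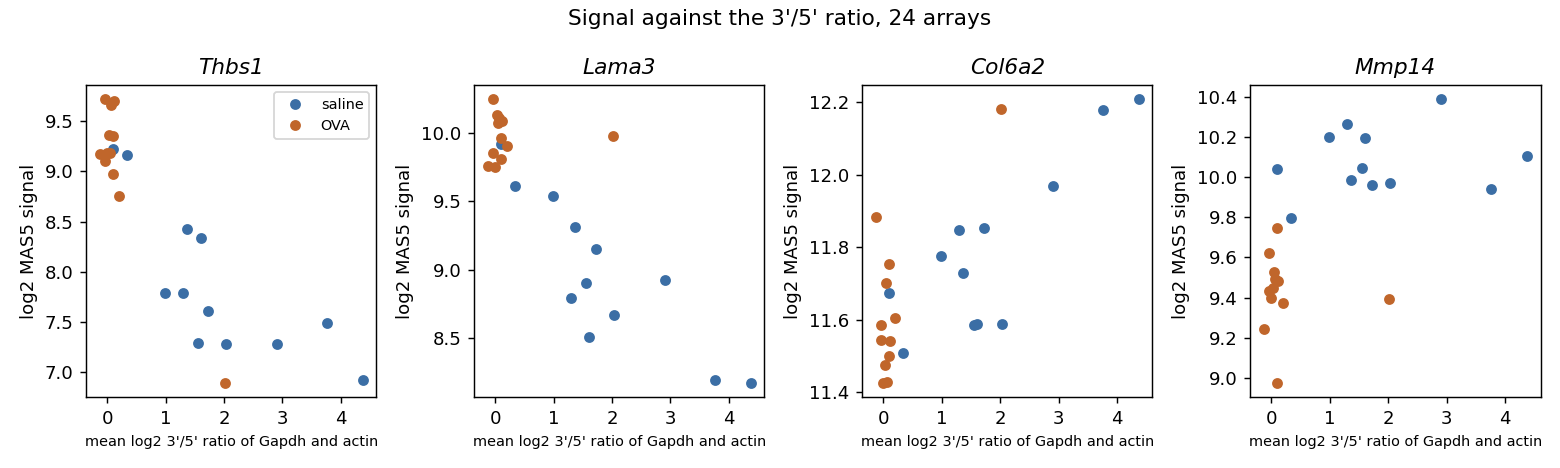
Log2 signal against the mean 3'/5' ratio (log2) for 4 genes on 24 arrays (saline blue, OVA orange). Thbs1 and Lama3 are lower and Col6a2 higher on arrays of high ratio, and the OVA points of Mmp14 lie below all saline points. Few saline arrays lie at the ratios of most OVA arrays.

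Of the 16 genes called in OVA against saline, 8 also had a called slope (Bgn, Col5a2, Col6a1, Fbln1, Lama3, Lox, Sparc and Thbs1) and 8 had none (Col15a1, Col5a3, Hspg2, Lamb2, Mmp14, Mmp2, Postn and Timp2). With the ratio as a covariate, 5 genes were called for the mean OVA difference. They were Mmp14 at -0.58 ± 0.10 (adjusted p = 0.000264, limma), Col5a2 at 0.38 ± 0.10, Lama3 at 0.47 ± 0.12, Timp2 at -0.33 ± 0.10 and, newly, Fbln2 at -0.43 ± 0.12. The difference of Thbs1 shrank from 1.20 to 0.22, that of Fbln1 from 0.62 to 0.03 and that of Lox from 0.76 to 0.37. With B1 signal as the covariate only Mmp14 was called, at -0.49 (adjusted p = 0.0416, limma), and with both covariates only Lama3 and Timp2. Leaving out the 3 arrays instead kept 15 of the 16 calls, lost Postn and added Fbln2. The share of all probe sets called in each of these fits is not given here. The counts are thus not read as particular to matrix genes. Ratio, B1 signal and OVA differ together between the arms, and how much of the OVA differences goes with each cannot be told apart.

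**Figure D5:**
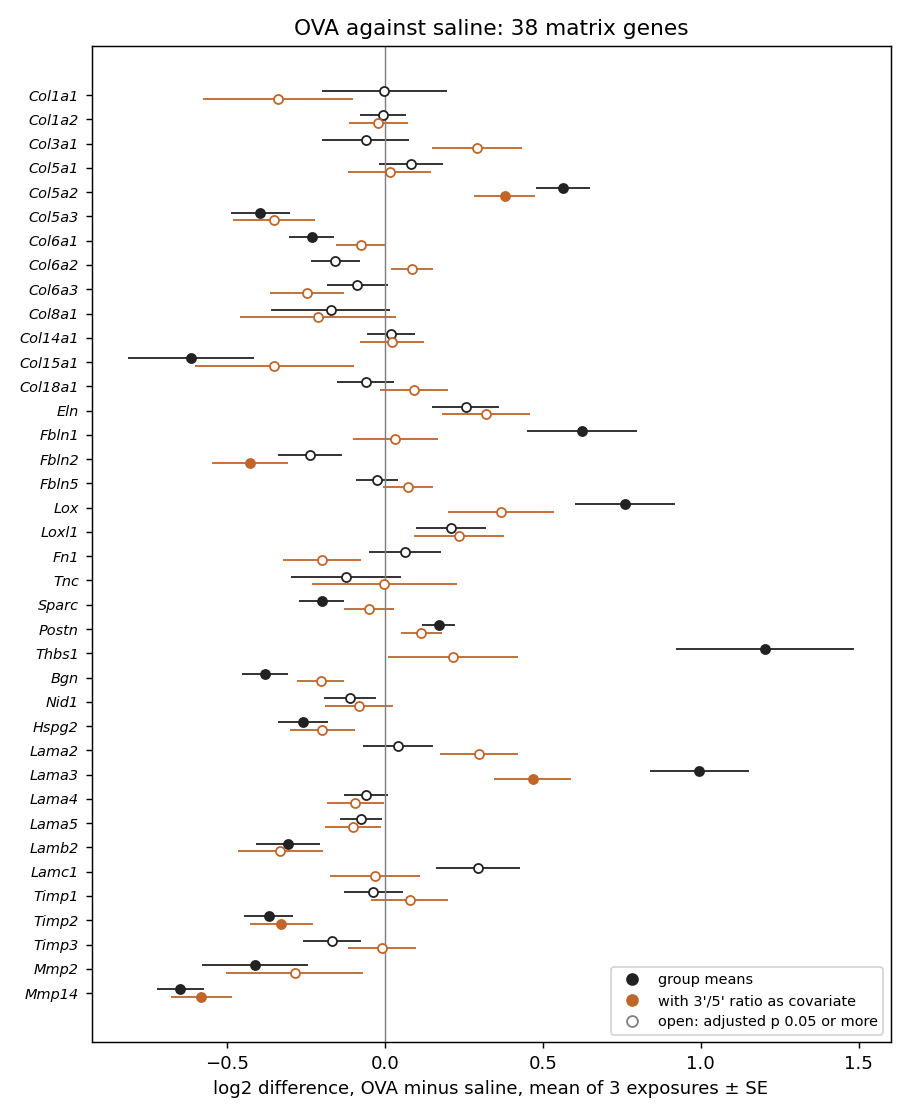
Mean log2 difference between OVA and saline over 3 exposures, with SE, for 38 matrix genes ordered by role, from group means alone (black) and after adding the array ratio to the fit (orange); filled points have an adjusted p under 0.05. Of 16 filled black points, 4 stay filled in orange (Col5a2, Lama3, Timp2, Mmp14), and Fbln2 is filled in orange alone.

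Probe sets of 1 gene often disagreed. Of the genes, 21 had more than 1 tested probe set, 48 in all, and 9 of the 21 had probe sets of opposite sign in the mean OVA difference. In DE2000 against air, 13 had them in saline, 6 in OVA and 9 in the mean of the arms. For the mean OVA difference, Hspg2, Sparc and Thbs1 were called in 1 direction by all their probe sets. For Thbs1 the second probe set gave 0.64 ± 0.19 and for Hspg2 -1.45 ± 0.21. Fbln1 and Timp2 were called in both directions. The other Timp2 probe sets gave 1.85 ± 0.43, 0.43 ± 0.19, 0.31 ± 0.08 and 0.00 ± 0.10, and the second set of Fbln1 gave -0.27 ± 0.11. For Timp3 the other sets gave 2.09 ± 0.35, 1.46 ± 0.30 and 0.39 ± 0.09 against -0.17 for the set used here. A further Mmp14 probe set, below the signal limit, was at 1.16 ± 0.54. The second set of Col5a2 was at 0.05 ± 0.12, that of Lamc1 at -1.38 ± 0.35, that of Col3a1 at 0.51 ± 0.13 and that of Col1a1 at -0.54 ± 0.21. The files do not give the position of a probe set in its transcript, so its relation to the 3'/5' ratio was not tested.

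Genes that act on the matrix were counted from 5 further lists. In DE2000 against air, averaged over the arms, no gene of these lists was called (limma). The collagen-folding genes, such as Serpinh1, the collagen chaperone, at -0.30 there, had a median of 0.00 over 17 genes. Small leucine-rich proteoglycans and microfibril proteins had a median of -0.13 with 4 of 15 above 0, among them Mfap2, a microfibril protein, at -0.32. Sdc4, syndecan 4 of the receptor list, was at 0.82 (adjusted p = 0.21, limma) and Mmp9, a neutrophil and macrophage gelatinase, at 0.34 (adjusted p = 0.446, limma).

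In OVA against saline, 22.7% of all probe sets were called higher and 23.6% lower, and 4 of these 5 lists had calls in both directions. Small leucine-rich proteoglycans and microfibril proteins had 9 higher and 3 lower of 15, with Lum (lumican) at 0.78, Ogn (osteoglycin) at 0.64 and Aspn (asporin) at 1.47. Collagen folding and processing had 4 higher and 3 lower of 17, among them Serpinh1 at 0.64, Bmp1, the procollagen C-proteinase, at -0.47 and Crtap, part of the prolyl 3-hydroxylation complex, at -0.26. TGF-beta and CCN genes had 8 higher and 4 lower of 18, with Tgfbr2 at 0.46, Ccn3 at 0.66 and Smad4 at -0.80. Integrin and collagen receptors had 3 higher and 7 lower of 17, with Itga8 at 2.61, Itgb1 at 1.15 and Sdc4 at -1.37. Other proteases and inhibitors had 6 higher and 0 lower of 16, with the cathepsins Ctsl at 0.40 and Ctsk at 0.48 and the membrane inhibitor Reck at 0.40. Of these 15 named genes, 10 also had a called slope on the 3'/5' ratio (limma), each of the sign opposite to its OVA difference, against 37.9% of all probe sets with a called slope. The 15 were picked by their OVA p-values, and their slopes without the 3 arrays left out above are not given. The slopes per unit of ratio were -1.12 for Itga8, -0.49 for Itgb1, -0.47 for Aspn, -0.24 for Serpinh1, -0.20 for Tgfbr2 and 0.31 for Smad4, with smaller ones for Lum, Ogn, Ctsl and Bmp1. The part of the ratio in these differences cannot be told apart from that of OVA.

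Markers of cells that make matrix were also set beside these results. The summed signal of 12 fibroblast markers was 44700 to 51900 in saline and 49000 to 58100 in OVA, and 5 markers were called higher and 3 lower, against 22.7% and 23.6% of all probe sets. Tcf21, a fibroblast transcription factor, was at 0.62 and S100a4, a calcium-binding protein, at -0.50. The sum of 9 smooth muscle and pericyte markers was 12300 to 19600 in saline and 10800 to 18300 in OVA, with 0 called higher and 3 lower, among them Acta2, smooth muscle actin, at -0.32. Between air and DE2000 the fibroblast sum was 44700 to 51900 and 48500 to 49300 in saline and 49000 to 54000 and 51600 to 58100 in OVA. The smooth muscle sum was 14600 to 19400 and 12900 to 19600 in saline, and 10800 to 13600 and 14600 to 18300 in OVA, where the groups did not overlap. Acta2 in DE2000 against air was at 0.05 ± 0.18 in saline and 0.63 ± 0.18 in OVA, not called in either (limma). In OVA, Tagln was at 0.48 and Cnn1 at 0.23, while the other smooth muscle and pericyte markers ran from -0.14 (Smtn) to 0.05 (Myh11). The sum thus does not speak for every marker. The part of cell number in the matrix results was not tested.

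The matrix genes varied slightly less between arrays of a group than probe sets in general. Their residual SD on the log2 scale had a median of 0.23, from 0.10 for Postn to 0.77 for Thbs1, against a median of 0.28 over all tested probe sets. Each member is the probe set of highest mean signal of its gene. The probe sets compared were not matched for signal, so the difference is not read as particular to matrix genes. The 2 members below the limit were Vcan, versican, a large proteoglycan, at 6.17 to 7.35, and Nid2, nidogen 2, at 3.88 to 7.24. Neither was tested.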

How the data were processed

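Whole-lung RNA of 24 arrays was measured. The deposited values are 1 linear intensity (signal) per probe set and array, made with MAS5 per the submitters' processing notes, and the array-wide trimmed mean (2% cut at each end) was 500.1 to 500.2 on every array. Gene names come from the platform's annotation table. Of 22690 probe sets, 64 controls were dropped, and of the 22626 left 20380 named 1 gene, 691 several and 1555 none. Signals were taken to log2 with no pseudocount, and 13575 probe sets with a mean log2 signal above the 40th percentile were tested. The test was limma 3.58.1 in R 4.3.3, with 1 mean per group over all 24 arrays (18 residual degrees of freedom), eBayes with trend, two-sided p and Benjamini-Hochberg adjustment over all tested probe sets. A call is an adjusted p under 0.05. The covariate fits added the 3'/5' ratio, the B1 signal or both. The script was tested on simulated data. The number of arrays limits the precision.

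The members and lists were chosen with earlier results of these data known. Named with full values were genes called in any comparison (the 6 largest rises and falls where over 12 were called), the 4 smallest p in each diesel comparison, Col1a1, Col3a1, Eln, Fn1, Timp1 and Tnc, and up to 3 genes of each other list by p. Col1a2, Loxl1, Nid1, Timp3, Lama3 in DE2000 saline and the genes whose promoters are shown, were added after their values were seen.

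Replicate numbers did not pair arrays: over 60 pairs of groups and numbers, same-numbered arrays had deviations from their group means that correlated by 0.03 on average (-0.43 to 0.59). Alternatives were scaling to 1 median, quantile normalization, testing all probe sets or those above the 60th percentile, adding 50 to each signal, array weights, eBayes without trend, fits restricted to the groups compared, a replicate block, the covariates, the Gapdh or actin ratio alone, each other probe set, leaving out each array, and, chosen after seeing the data, leaving out the 3 arrays apart.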

Additional observations from a re-analysis of the deposited data

Results flagged for a closer look

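Of 180 groups of 4 arrays examined over the named genes, 9 held an array whose gap to the nearest of the others, divided by the group's range, was above Dixon's critical value for 4 values, and chance gives about 1 in 20. In DE2000 OVA, Col5a2 was lowest in replicate 2 at a log2 signal of 9.54 (others 9.92 to 9.98), and Thbs1 was lowest in replicate 4 at 6.89 (others 9.17 to 9.35). In DE2000 saline, Col6a2 was highest in replicate 3 at 11.85 (others 11.59) and Timp1 highest in replicate 2 at 8.03 (others 7.90). Replicate 3 of DE500 OVA was highest for 3 genes, Col5a3 at 7.51 (others 7.05 to 7.11), Lama4 at 9.63 (others 9.44 to 9.47) and Tnc at 7.89 (others 7.17 to 7.23). In the same group, Sparc was lowest in replicate 4 at 13.28 (others 13.49 to 13.52). In air OVA, Hspg2 was highest in replicate 3 at 10.50 (others 9.94 to 10.02).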

How the results depend on the processing

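The absence of called matrix genes in the diesel comparisons held with quantile normalization, scaling to 1 median, either filter, the pseudocount, array weights, no trend, the groups compared alone and each array left out (0 to 0 calls, also for the interactions). Exceptions were DE2000 saline with both covariates (1 call, Lama3 at -0.72), DE500 saline without the 3 arrays apart (1, Thbs1), DE2000 OVA with B1 (3: Col6a2, Col1a1 and Thbs1) and the DE2000 interaction with B1 (1, Col6a2 at 0.70). For these exceptions and the OVA counts below, the share of all probe sets called in the same fit is not given. The counts are thus not read as particular to matrix genes.

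OVA counts moved more. In air the 6 calls became 3 with no filter, 11 with array weights, 1 with the 3'/5' ratio, 0 with B1, 0 with both and 12 without the 3 arrays. In DE500 the 5 calls became 8 with quantile normalization, 8 with the 60th percentile filter, 11 with array weights, and 0 with the ratio, with B1, with both, without the 3 arrays or with only the groups compared. In DE2000 the 7 calls became 4 with B1, 1 with both and 3 with only the groups compared. The 16 calls in the mean became 5 with the ratio, 1 with B1 and 2 with both, and the 13 slopes became 0 without the 3 arrays. Leaving out 1 array at a time gave 1 to 5 calls in air, 0 to 12 in DE500, 4 to 8 in DE2000, 15 to 18 in the mean and 8 to 15 slopes. In DE500 the count was 0 when either saline replicate 1 or replicate 4 was left out, and the cause was not tested.

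With the replicate number as a block, which does not pair arrays here, the calls were 8 in air, 5 in DE500, 7 in DE2000, 15 in the mean (Mmp2 lost) and 13 slopes, and 0 for the diesel comparisons and the interactions.

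Signs turned as follows in the mean over exposures, with causes not tested. With B1, Thbs1 was at -0.55, Fbln1 at -0.30, Col6a1 at 0.0759, Sparc at 0.0511 and Mmp2 at 0.005. With both covariates, Thbs1 was at -0.18, Col15a1 at 0.16, Col6a1 at 0.0819 and Mmp2 at 0.36, and in DE2000 Col15a1 was at 0.0812 and Lama5 at 0.0303. Other probe sets gave Bgn 0.0436 (0.0574 in air), Col3a1 0.51, Fbln1 -0.27 and Timp2 1.85, 0.43 and 0.31. In DE500 they gave Timp2 2.09, 0.52, 0.14 and 0.17 and Col5a2 -0.24, and in air Col5a2 -0.14.

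The number of arrays, the 3'/5' ratios that differ between arms and the disagreement between probe sets limit these results, and Tnc, Col5a3 and Col15a1 had mean log2 signals of 7.25, 7.41 and 7.41, close to the limit of 7.11.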
